A study of Oryctolagus cuniculus with 6 samples.

Results

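BMP2, NODAL, GDF3 and CER1 were measured in rabbit blastocysts that had developed after vitrification or slow freezing. BMP2, NODAL and GDF3 encode secreted ligands of the TGF-beta family, and CER1 (Cerberus 1) encodes a secreted inhibitor of such ligands. Every probe of the array that is not a control and whose gene name, description or accessions point to one of these genes was taken. This gave 19 probes: 8 for BMP2, 5 for CER1, 5 for GDF3 and 1 for NODAL. All 19 entered the test. They stand for 4 of the 8477 genes with a symbol and a tested probe.

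The embryos were New Zealand White rabbit blastocysts of 6 days, an age at which the rabbit blastocyst lies free in the uterus, shortly before implantation. Vitrified embryos had been brought into 20% dimethyl sulphoxide and 20% ethylene glycol with albumin and plunged into liquid nitrogen. Frozen embryos had been brought stepwise into 1.5 M dimethyl sulphoxide with albumin, cooled at 0.3 °C per min after ice was seeded, and then stored in liquid nitrogen. Embryos of both treatments were warmed, transferred into recipient females and collected alive at 6 days, so the treated groups carry warming, transfer and survival together with the cooling method. The control embryos were untreated and of the same age. How many embryos made up an extract is not given in the sources used here.

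Each of the 6 arrays set 1 treated extract (3 vitrified, 3 frozen) against 1 control extract in another dye. The labels give 3 control extracts, each used on the vitrified and the frozen array of the same replicate number, so both treatment comparisons share their controls. The dyes were swapped on replicate 2 of both treatments only. An effect of the dye and one of control extract 2 therefore cannot be told apart. Spots well above background made up 44.7% to 58.0% of an array in the green channel and 64.2% to 74.5% in the red channel. None of the 19 probes was saturated on any array, and 17 were well above background in all 12 channel measurements.

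Ligands of this family bind pairs of type I and type II receptor kinases on the cell surface, and the receptors phosphorylate SMAD proteins, which enter the nucleus and regulate genes. BMP2 signals through SMAD1, SMAD5 and SMAD9, whereas NODAL signals through SMAD2 and SMAD3 and needs a co-receptor of the Cripto family. GDF3 is a relative of NODAL that is known from pluripotent cells. In mammalian embryos NODAL and BMP signals from the epiblast and the tissues around it set up the anterior-posterior axis, and CER1, made in the anterior visceral endoderm, holds them back there. In the rabbit the corresponding cells are the epiblast of the embryonic disc and the hypoblast beneath it.

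The sequence of the brightest probe of each gene is shown because it states which part of the transcript each value reports. They are written 5′ to 3′ as on the array.
BMP2: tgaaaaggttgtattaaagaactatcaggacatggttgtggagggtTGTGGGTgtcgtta
GDF3: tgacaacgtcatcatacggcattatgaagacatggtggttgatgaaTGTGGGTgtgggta
CER1: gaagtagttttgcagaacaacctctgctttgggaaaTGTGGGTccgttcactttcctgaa
NODAL: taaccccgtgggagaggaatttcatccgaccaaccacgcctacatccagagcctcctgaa
The capitals mark TGTGGGT, a run of 7 letters seen when the probes were compared. The run TGTGGGT was present in this orientation in the BMP2, GDF3 and CER1 probes shown, and in 0.296% of all 43548 array sequences of this length (0.604% on either strand). It was not in the NODAL probe. The BMP2 and GDF3 probes were identical at 41 of 60 aligned bases (68.3%), with no gap. No other pair of the 4 came above 50% over its best overlap of at least 30 bases. Cross-hybridisation between the BMP2 and GDF3 probes was not tested.

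The files place the BMP2 probe shown at chr4:29449448-29449507 on the minus strand, the CER1 probe at chr1:39249895-39249954 and the GDF3 probe at chr8:33892393-33892452, the last 2 on the plus strand. The NODAL probe spans chr18:16537303-16538845 on the plus strand, 1543 bases for 60 letters, so its place in the genome is split by a gap. The genome build of these coordinates is not given in the sources used here. Probes of one gene overlapped. The 5 CER1 probes shared 56 bases, the 5 GDF3 probes shared 56, and 5 BMP2 probes shared 53 and are called proximal here. The remaining 3 BMP2 probes, called distal, start at transcript positions 1962, 2033 and 2073, towards the 3′ end, whereas the proximal ones start between 1189 and 1196. Overlapping probes read the same stretch of RNA and are not independent measurements.

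BMP2 lay below control on all 3 arrays of frozen embryos and had no common direction on the arrays of vitrified embryos. On its brightest probe the log2 of treated over control RNA read -1.08, -0.88 and -0.96 on frozen arrays 1, 2 and 3. It was -0.62, 0.09 and 0.55 on vitrified arrays 1, 2 and 3. The frozen arrays lay close together and below every vitrified array, and vitrified array 1 was the low one of its group. All values by array and probe below are log2 ratios of treated over control. Each fitted difference is the log2 difference estimated across all 6 arrays with a term for the dye. Its SE comes from a spread shared by all 6 arrays, and the n beside it counts only the arrays of that treatment.

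The fitted BMP2 difference between frozen and control embryos was -0.95 ± 0.20 (SE, n = 3 arrays), a level 1.94-fold lower, with a 95% interval from -1.42 to -0.49. Its unadjusted p was 0.00168 and its adjusted p 0.131 (limma, Benjamini-Hochberg over 30758 probes), so it did not pass the threshold of 0.05. No member probe passed in this comparison, where 0.185% of all tested probes did. At an unadjusted p under 0.05 stood 8 of 8 BMP2, 5 of 5 CER1, 1 of 1 NODAL and 0 of 5 GDF3 probes, all below 0. Of all tested probes 13.2% did, and 7.17% of all did so below 0. The adjusted p of BMP2 depended on the arrays and their weights. Without vitrified array 1, whose value enters the shared spread, the difference was -0.997 with an adjusted p of 0.0192, and 513 probes passed in all. With array weights it was -0.94 with an adjusted p of 0.00820, and 3645 probes passed in all. With slide as a covariate it was -0.87 with an adjusted p of 0.183, and without frozen array 2, 1 of the dye-swapped arrays, it was -0.96 with an adjusted p of 1.00.

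In vitrified embryos the fitted BMP2 difference from control was 0.03 ± 0.20 (SE, n = 3 arrays), with an interval from -0.44 to 0.50. No member probe passed in the vitrified comparison at an adjusted or an unadjusted p under 0.05, where 0.0195% and 17.4% of all tested probes did. The sign for BMP2 turned to -0.060 with median centring in place of loess, to -0.048 with slide as a covariate, to -0.062 as the mean of its 8 probes and to -0.26 without vitrified array 3.

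**Figure D1:**
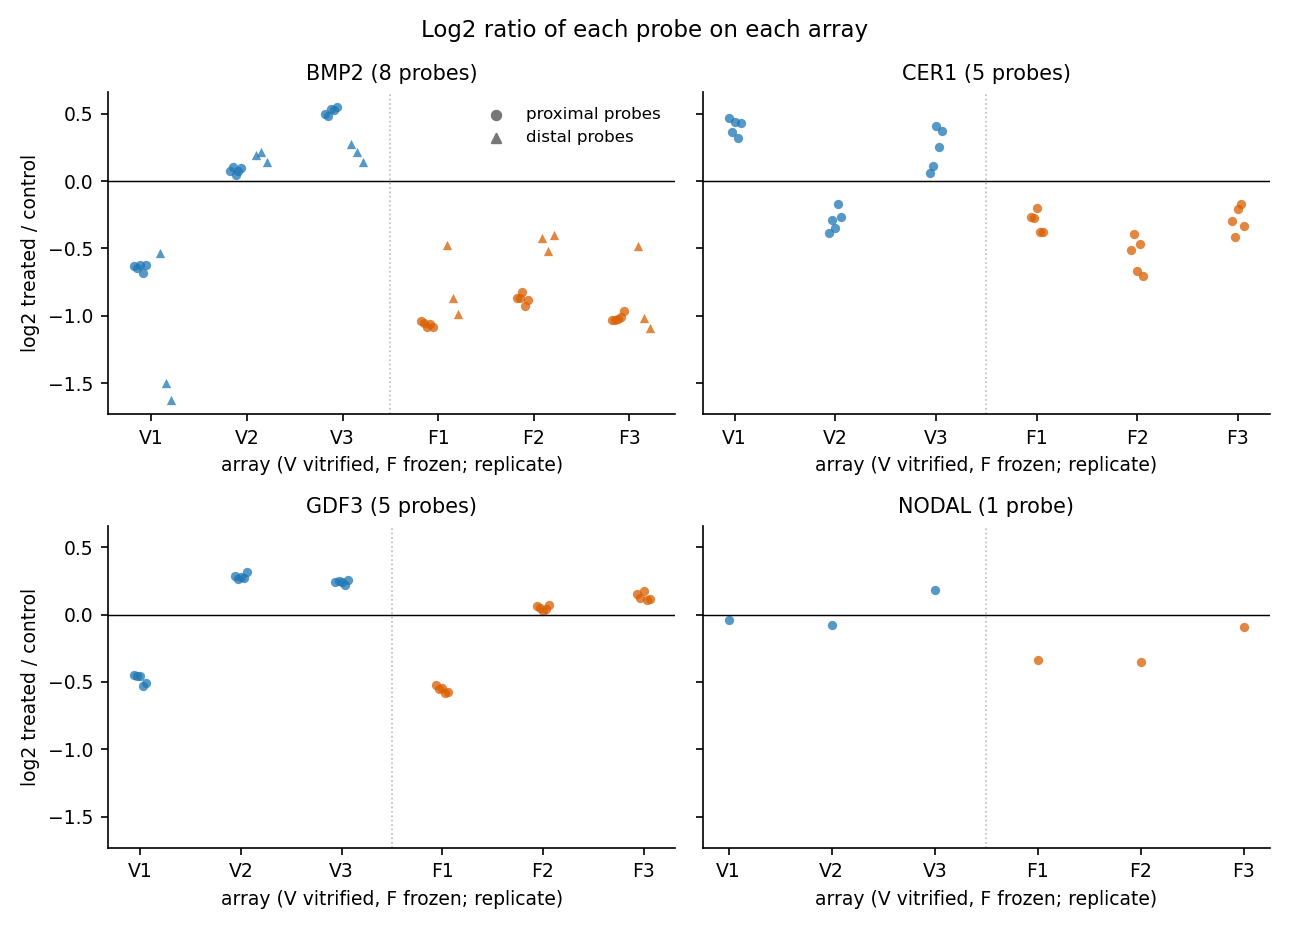
Log2 ratio of treated over control (vertical axis) for every probe of BMP2, CER1, GDF3 and NODAL on the 3 vitrified (V) and 3 frozen (F) arrays (horizontal axis). Each point is 1 probe on 1 array, and triangles are the distal BMP2 probes; BMP2 and CER1 points of the frozen arrays all lie below 0, and both GDF3 and BMP2 are low on V1.

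The BMP2 probes of the proximal and distal sites differed in size and in their pattern over arrays. The 5 proximal probes gave frozen differences from -0.98 to -0.95, whereas the 3 distal ones gave -0.70 to -0.43, with adjusted p of 0.301 to 0.356 (limma, Benjamini-Hochberg). On frozen arrays 1, 2 and 3 the proximal probes averaged -1.07, -0.87 and -1.01, and the probe at position 1962 read -0.48, -0.43 and -0.48. That probe was thus closer to 0 than the proximal mean on each frozen array, by 0.59, 0.45 and 0.53. The last 2 distal probes read like the proximal ones on frozen arrays 1 and 3, with means of -0.93 and -1.05, and lay nearer to 0 on frozen array 2, at -0.46.

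Vitrified array 1 separated the BMP2 probes most. There the proximal mean was -0.64 and the probe at 1962 read -0.53, but the probes at 2033 and 2073 averaged -1.56. The last pair was therefore 0.92 below the proximal site on that array, and it was 0.10 above it on vitrified array 2. On vitrified array 3 the distal probe at 1962 and the last pair were both closer to 0 than the proximal mean of 0.52, at 0.28 and 0.18. Through array 1, the brightest distal probe, at 2033, gave a vitrified difference of -0.25 ± 0.28 (SE, n = 3 arrays), which became 0.22 without that array. The frozen arrays were below every vitrified array for the 5 proximal probes and for none of the 3 distal ones. Differences between sites were not tested.

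**Figure D2:**
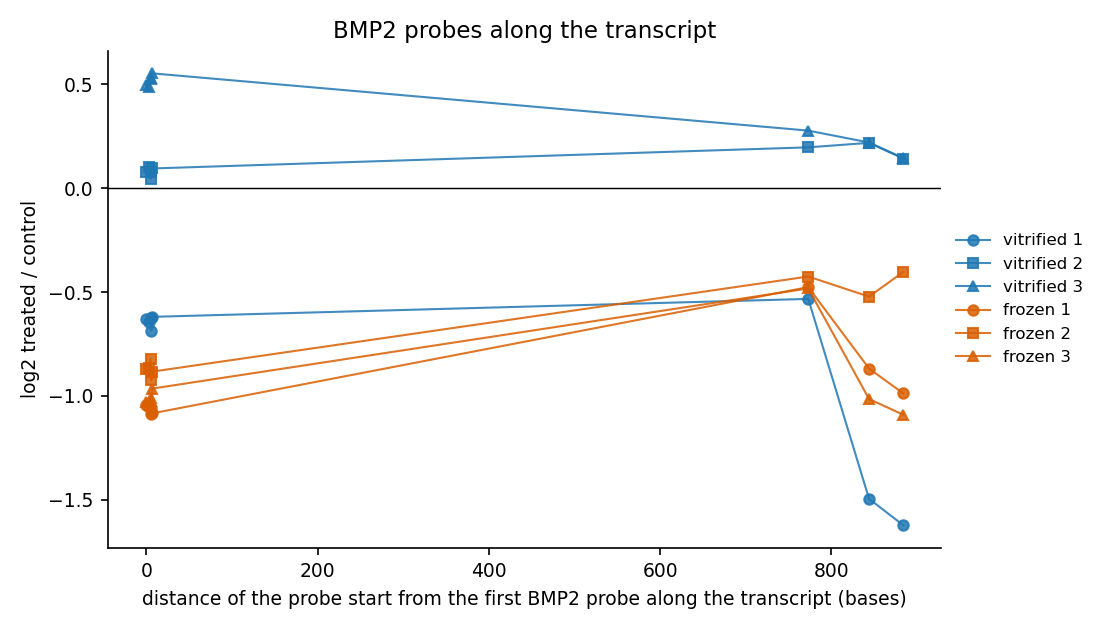
Log2 ratio of treated over control (vertical axis) of the 8 BMP2 probes against the distance of the probe start from the first BMP2 probe along the transcript, in bases (horizontal axis), with 1 line per array. The 3 frozen arrays lie below 0 at every probe, and vitrified 1 drops from -0.53 at the first distal probe to -1.50 and -1.62 at the last pair.

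NODAL, the ligand that maintains the early epiblast and induces mesendoderm, was dim. Its probe was well above background in 8 of 12 channel measurements, 4 of treated and 4 of control RNA. It read -0.04, -0.08 and 0.18 on vitrified arrays 1, 2 and 3, and -0.34, -0.36 and -0.09 on frozen arrays 1, 2 and 3. Every frozen value was below 0 and below every vitrified value, though frozen 3 at -0.09 and vitrified 2 at -0.08 nearly met. The fitted difference was -0.29 ± 0.10 (SE, n = 3 arrays; limma adjusted p = 0.290) in frozen embryos and -0.00 ± 0.10 in vitrified embryos. The size of the frozen value depended on the processing. With the scanner software's own ratio, which differs in background correction and in dye normalisation, it was -0.96, and with an offset of 10 in place of 50 it was -0.43, with adjusted p of 0.225 and 0.258. The vitrified value was -0.33 with the scanner software's ratio.

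GDF3 had no common direction in either treatment. On its brightest probe it read -0.51, 0.32 and 0.25 on vitrified arrays 1, 2 and 3, and -0.57, 0.07 and 0.12 on frozen arrays 1, 2 and 3. Both arrays of replicate 1, which carry the same control extract, were low, and the other 4 were above 0. The ranges of the groups overlapped, and in each replicate pair the vitrified array read the higher of both. The 5 GDF3 probes varied little among themselves, from -0.09 to -0.05 in frozen and from 0.05 to 0.08 in vitrified embryos. The brightest gave -0.07 ± 0.18 (SE, n = 3 arrays; limma adjusted p = 0.921) in frozen embryos, with an interval from -0.49 to 0.35. It gave 0.08 ± 0.18 (SE, n = 3 arrays; limma adjusted p = 0.844) in vitrified embryos, with an interval from -0.34 to 0.51. The frozen sign turned to 0.029 with slide as a covariate and to 0.093 without frozen array 1.

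CER1, the inhibitor, lay below control on all 3 frozen arrays for all 5 of its probes. Its brightest probe read -0.38, -0.46 and -0.17 on frozen arrays 1, 2 and 3, and 0.32, -0.17 and 0.25 on vitrified arrays 1, 2 and 3. The frozen array nearest to 0, frozen 3, met the lowest vitrified array, vitrified 2, at -0.17. Vitrified array 1 was the highest for CER1, on which it differed from BMP2 and GDF3. The fitted frozen difference was -0.39 ± 0.10 (SE, n = 3 arrays; limma adjusted p = 0.174), 1.31-fold lower, with an interval from -0.63 to -0.16. The brightest probe gave the smallest difference of the 5, and the range reached -0.56 with an adjusted p of 0.0942. With array weights, where 3645 probes passed in all, the CER1 difference was -0.34 with an adjusted p of 0.0281. With the scanner software's ratio it was -0.61 with an adjusted p of 0.273. In vitrified embryos it was 0.08 ± 0.10 (SE, n = 3 arrays; limma adjusted p = 0.716).

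Counted over probes, 14 of 19 were below 0 on all 3 frozen arrays (8 of BMP2, 5 of CER1 and that of NODAL), against 14.7% of all tested probes. None of the 19 was below 0 on all 3 vitrified arrays, against 16.9% of all. The 19 probes are few independent stretches of RNA, since most overlap. The genes were also chosen with earlier results of these data known. Counts of member probes beside the share of all probes, here and below, are therefore descriptions and not tests.

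Levels in the single channels, as log2 normalised intensity, showed which side of the ratio varied. BMP2 in control extracts 1, 2 and 3 stood at 11.69, 11.66 and 11.56, each the mean of 2 arrays. In vitrified embryos it spanned 10.87 to 12.11 with a median of 11.71, and in frozen embryos 10.59 to 10.82 with a median of 10.80. As mean ± SD (n = 3) these were 11.63 ± 0.07 in control, 11.56 ± 0.63 in vitrified and 10.74 ± 0.13 in frozen embryos. Frozen embryos lay below all control extracts, and vitrified embryos surrounded them. On the vitrified arrays the control channel spanned only 11.48 to 11.61.

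CER1 levels were 8.24 ± 0.19 (SD, n = 3) in control, 8.37 ± 0.17 in vitrified and 7.91 ± 0.16 in frozen embryos. The highest frozen level, 8.08, was just under the lowest control mean, 8.09, and above the lower of that extract's 2 measurements, 8.06. GDF3 levels were 13.34 ± 0.29 (SD, n = 3), 13.36 ± 0.41 and 13.22 ± 0.18 in the same order, and the groups overlapped. On vitrified array 1 GDF3 had its lowest treated level, 12.90, beside a control level of 13.40. On frozen array 1 its treated level was 13.29, beside its highest control level, 13.86. NODAL levels were 7.01 ± 0.16 (SD, n = 3), 6.91 ± 0.03 and 6.86 ± 0.07, with overlap of control and both treatments. For 8 of 8 BMP2 and 5 of 5 CER1 probes the 3 frozen levels were below the 3 control levels, against 6.42% of all tested probes, and for no GDF3 or NODAL probe. Control extract 1 read differently on its vitrified and its frozen array, by 0.40 for BMP2 and by 0.46 for GDF3, the frozen array being higher. For control extracts 2 and 3 these gaps were at most 0.09 for BMP2 and 0.20 for GDF3. For NODAL the control level was higher on the frozen than on the vitrified array for all 3 extracts, by 0.14, 0.29 and 0.25. The NODAL contrast of vitrified minus frozen was 0.28, whereas its treated levels had means of 6.91 and 6.86. In whole blastocysts, fewer cells that make an RNA and less RNA per cell cannot be told apart.

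**Figure D3:**
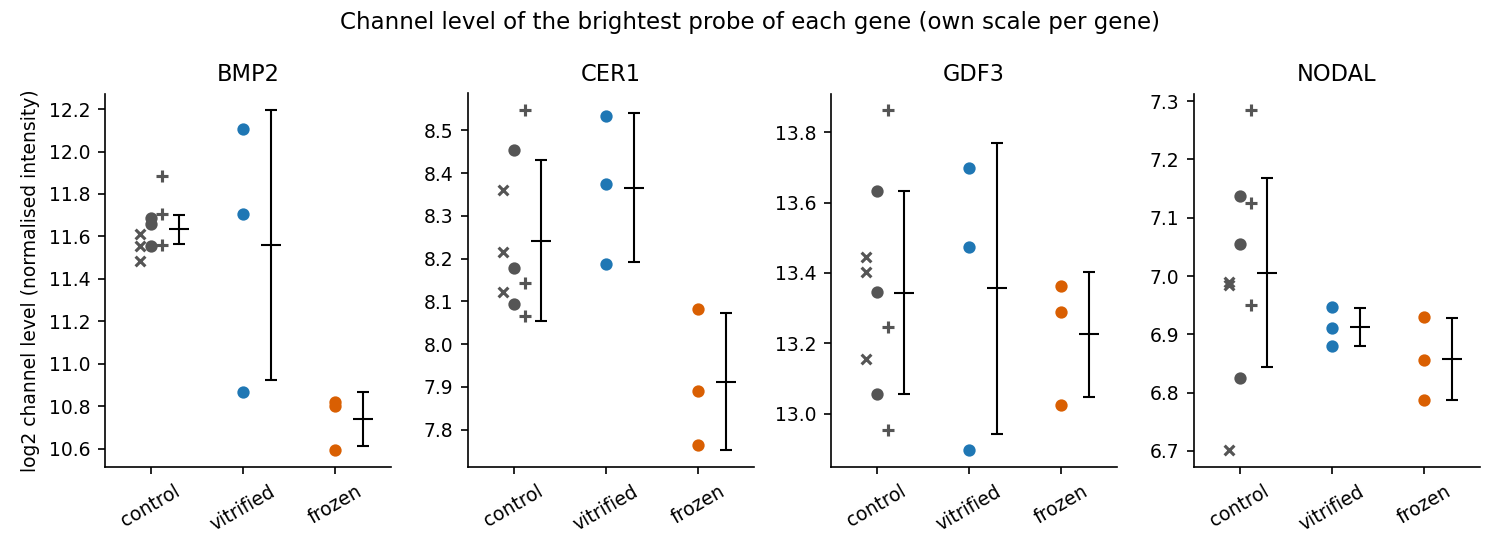
Log2 normalised channel intensity (vertical axis, a separate scale for each gene) of the brightest BMP2, CER1, GDF3 and NODAL probe in control, vitrified and frozen embryos. Points are extracts, crosses and plus signs the control measurement on the vitrified and on the frozen array, and bars the mean ± SD of 3; the frozen points lie below the control points for BMP2 and CER1.

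The direct contrast asked whether vitrified and frozen embryos differed from each other. No member probe passed the adjusted threshold. No probe of the array passed in this contrast (0% of 30758 in limma; 2320, or 7.54%, at an unadjusted p under 0.05). BMP2 differed by 0.99 ± 0.28 (SE), 1.98-fold, with an interval from 0.35 to 1.63 (limma adjusted p = 0.592, with an unadjusted value of 0.00787). CER1 differed by 0.47 ± 0.14 (SE), with an interval from 0.15 to 0.79 (limma adjusted p = 0.592, with an unadjusted value of 0.00944). NODAL differed by 0.28 ± 0.14 (SE) with an interval from -0.04 to 0.61, and by 0.63 with the scanner software's ratio and 0.42 with an offset of 10. GDF3 differed by 0.15 ± 0.25 (SE) with an interval from -0.43 to 0.73. Unadjusted, 5 of 5 proximal and 0 of 3 distal BMP2 probes and 5 of 5 CER1 probes stood under 0.05 and higher in vitrified embryos, against 4.06% of all. The 3 frozen arrays lay below the 3 vitrified arrays for 8 of 19 member probes, against 5.75% of all: 5 of BMP2, 2 of CER1 and that of NODAL.

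Leaving out single arrays moved the contrast of the brightest BMP2 probe between 0.65, without vitrified 3, and 1.32, without vitrified 1. For the brightest distal BMP2 probe it moved between 0.00067 and 0.98 on leaving out the same arrays. The arrays lay on 2 slides that held both treatments. On slide 1 the BMP2 ratio was -0.62 on the vitrified array and -0.98 on average over 2 frozen arrays, and on slide 2 it was 0.32 over 2 vitrified arrays and -0.96 on the frozen one. CER1 was 0.32 against -0.42 on slide 1 and 0.04 against -0.17 on slide 2. NODAL was -0.04 against -0.35 on slide 1 and 0.05 against -0.09 on slide 2. For the brightest probes of these 3 genes the frozen value was the lower one on both slides. The brightest distal BMP2 probe read -1.50 against -0.70 on slide 1, where the frozen value was the higher one. On slide 2 it read 0.22 against -1.015. GDF3 was -0.51 against -0.25 on slide 1 and 0.29 against 0.12 on slide 2, so its order differed. With slide in the fit the contrast was 0.83 for BMP2, 0.48 for CER1, 0.23 for NODAL and -0.042 for GDF3. For the brightest distal BMP2 probe it was 0.22.

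Of the other genes of the pathway, 54 of the 119 listed were tested, and none passed the adjusted threshold in any of the 3 comparisons in limma. At an unadjusted p under 0.05 stood 3 of them in vitrified embryos (5.56%, against 16.5% of all genes) and 6 in frozen embryos (11.1%, against 13.0% of all genes). In frozen embryos 19 of the 54 were above 0 and 35 below, with a median log2 difference of -0.05, whereas 49.2% of all genes were above 0 with a median of -0.00. In vitrified embryos 23 were above 0, with a median of -0.02, and 49.4% of all genes were. One probe, the brightest, stands for each gene.

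Among the other ligands, 14 of 30 were tested and 10 of the 14 were below 0 in frozen embryos, with a median of -0.05. BMP4, the close relative of BMP2 that induces mesoderm and germ cells in the mouse, gave -0.29 ± 0.15 (SE, n = 3 arrays; limma adjusted p = 0.459) in frozen and 0.01 in vitrified embryos. By array BMP4 read -0.34, 0.08 and 0.38 in vitrified and -0.15, -0.51 and -0.14 in frozen embryos. Its low vitrified array was array 1, as for BMP2. INHBE, an activin subunit, read 0.18 in vitrified embryos. LEFTY2, a NODAL antagonist and target, stood at -0.12 in vitrified and -0.10 in frozen embryos, and was well above background in 5 of 6 treated and 4 of 6 control channels. The probes of GDF10, INHA and INHBA were not well above background in most channels, and no differences are given for them. LEFTY1 was not among the tested genes.

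Of the receptors, 7 of 20 were tested, 4 of them above 0 in frozen embryos. BMPR2, the type II receptor for BMP ligands, read -0.22, -0.28 and -0.25 on frozen arrays 1, 2 and 3, with a fitted difference of -0.25 ± 0.10 (SE, n = 3 arrays; limma adjusted p = 0.340). In vitrified embryos it gave -0.07. The type I receptor BMPR1A stood at 0.04 in frozen and -0.00 in vitrified embryos. TGFBR1 gave -0.16 and -0.25 in frozen and vitrified embryos. AMHR2, the receptor for anti-Müllerian hormone, gave 0.37 ± 0.11 (SE, n = 3 arrays; limma adjusted p = 0.192) in vitrified embryos.

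Of the SMADs and their nuclear partners, 12 of 18 were tested, 6 of them above 0 in frozen and 3 in vitrified embryos. ZFYVE9 (SARA), which presents SMAD2 and SMAD3 to the receptor, read 0.44, 0.35 and 0.32 on frozen arrays 1, 2 and 3 and within 0.07 of 0 on the vitrified arrays, with 3 of 6 control channels well above background. Its fitted frozen difference was 0.37 ± 0.09 (SE, n = 3 arrays; limma adjusted p = 0.164). TRIM33, a ubiquitin ligase that binds SMADs, gave -0.24 in frozen embryos. In vitrified embryos PPM1A, a phosphatase that acts on SMAD2 and SMAD3, gave -0.27, and SMAD5 gave -0.26, with limma adjusted p of 0.239 and 0.288. The PPM1A value was the lowest of its 4 probes, which ranged up to 0.17.

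Of the secreted and membrane inhibitors and processing factors, 10 of 24 were tested and 7 were below 0 in frozen embryos. LTBP1, which tethers latent TGF-beta to the matrix, read 0.67, 0.47 and 0.46 on frozen arrays 1, 2 and 3. Its frozen difference of 0.53 ± 0.10 (SE, n = 3 arrays; limma adjusted p = 0.107) had the opposite sign to those of CER1 and BMP2, and its vitrified difference was 0.22. BMP1, a protease that cleaves the BMP inhibitor chordin, gave -0.25 in frozen and -0.15 in vitrified embryos. NOG (noggin), which binds BMP ligands, stood at -0.01 in frozen and 0.07 in vitrified embryos. Unlike CER1 it read on both sides of 0 on frozen arrays 1, 2 and 3, at -0.23, 0.04 and 0.16. FST was not among the tested genes.

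Of the targets and gastrulation genes, 11 of 27 were tested, and 9 of the 11 were below 0 in frozen embryos with a median of -0.07. In vitrified embryos 4 were below 0, with a median of 0.08. DKK1, a secreted WNT inhibitor made with CER1 in the anterior visceral endoderm of the mouse, read -1.60, -1.24 and -1.08 on frozen arrays 1, 2 and 3 and -1.80, -0.09 and 0.08 on vitrified arrays 1, 2 and 3. Its frozen difference was -1.23 ± 0.32 (SE, n = 3 arrays; limma adjusted p = 0.179). OTX2, a transcription factor of that tissue and of the epiblast, gave -0.51 ± 0.13 (SE, n = 3 arrays; limma adjusted p = 0.174) in frozen and -0.11 in vitrified embryos, with 5 probes between -0.55 and -0.46. GSC, a gene of the primitive streak, stood at 0.03 in frozen embryos.

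**Figure D4:**
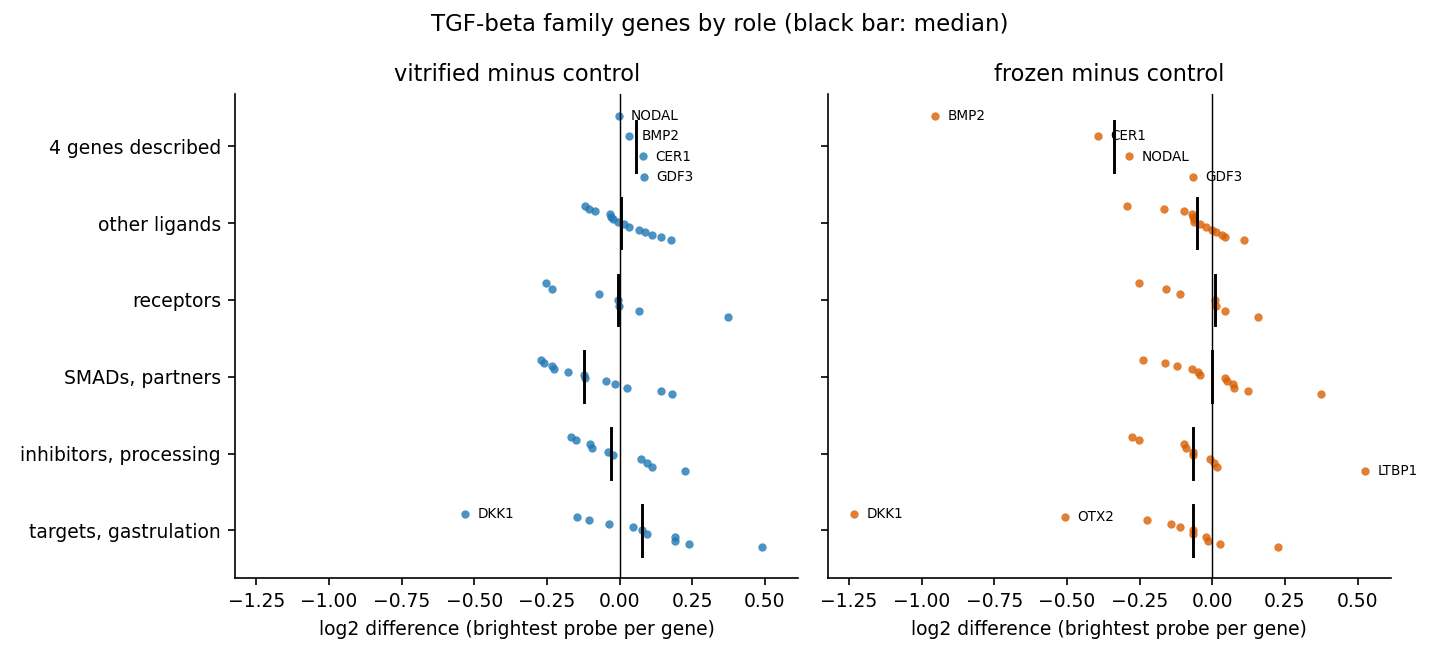
Fitted log2 difference (horizontal axis) in vitrified and in frozen embryos for the brightest probe of each gene, grouped by role (vertical axis), with points for genes and black bars for medians. BMP2 at -0.95 and DKK1 at -1.23 lie farthest below 0 in frozen embryos, and LTBP1 at 0.53 farthest above.

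Markers of the cell types of the blastocyst were read beside the members. Of 18 markers of hypoblast and visceral endoderm 8 were tested. In frozen embryos 7 of the 8 were below 0, with a median of -0.32, and 4 were below 0 at an unadjusted p under 0.05, as were 626 of all 8477 genes. The gene above 0 was DAB2, an endocytic adaptor, at 0.66, also at an unadjusted p under 0.05. Their median by array was -0.32, 0.18 and 0.40 on vitrified arrays 1, 2 and 3 and -0.65, -0.47 and -0.16 on frozen arrays 1, 2 and 3, so vitrified 1 was again the low array of its group. The summed log2 level of the 8 genes was 74.0 to 79.1 over the control channels, 75.2 to 79.6 in vitrified and 71.1 to 73.6 in frozen embryos. The genes for the secreted carriers APOA1, RBP4 and TF gave -1.13, -1.25 and -1.20 in frozen embryos, with limma adjusted p of 0.223, 0.200 and 0.133. GATA4, a transcription factor of this lineage, gave -0.23 in frozen and 0.24 in vitrified embryos, and GATA6 was not among the tested genes. The part of hypoblast cells in the BMP2 and CER1 values was not tested.

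Of 17 epiblast markers 6 were tested. Of these, 2 were below 0 in frozen embryos at an unadjusted p under 0.05, POU5F1 (OCT4) at -0.82 (limma adjusted p = 0.191) and OTX2, set against the same 626 of 8477 genes. The other 4 were above 0, ESRRB the highest at 0.51 (limma adjusted p = 0.468), and the list's median was 0.02. The summed log2 level was 59.1 to 61.3 over the control channels, 60.6 to 61.2 in vitrified and 58.7 to 61.3 in frozen embryos. Of 14 trophectoderm markers 10 were tested, with medians of 0.22 in frozen and 0.16 in vitrified embryos and summed levels of 99.2 to 102.5, 101.6 to 102.6 and 103.1 to 103.4 in control, frozen and vitrified embryos. KRT8, GATA2, GATA3, TFAP2C and POU5F1, markers that define the blastocyst's outer and inner cells, were well above background in all 12 channel measurements, whereas CDX2, NANOG and SOX2 were not among the tested genes. At an unadjusted p under 0.05 stood 3 of the 10 in frozen and 2 in vitrified embryos, all above 0, against 472 and 781 of all 8477 genes. Those in frozen embryos were GATA2, GATA3 and TFAP2C, and those in vitrified embryos GATA2 and TFAP2A. GATA2 gave 0.56 in frozen and 0.72 in vitrified embryos, and TFAP2A 0.34 and 0.66. GATA3 gave 0.46 and 0.14, and TFAP2C 0.27 and -0.05. The limma adjusted p of these genes was at least 0.144. In each treatment 3 of the 10 were below 0. The part of these cell types in the member values was not tested.

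Markers of blood and of the uterus were read because the treated embryos came from recipients. The 4 tested of 10 blood and immune markers had a summed log2 level of 35.3 to 39.7 over the control channels, 41.2 to 48.4 in vitrified and 36.6 to 43.6 in frozen embryos. The 5 tested of 7 uterine markers had 37.9 to 39.7, 41.2 to 44.9 and 38.6 to 41.2 in the same order. The blood and immune markers had medians of 1.54 in vitrified and 0.65 in frozen embryos, with 4 and 3 of the 4 above 0. The uterine markers had medians of 1.08 and 0.21, with 4 and 5 of the 5 above 0. The alpha globin gene HBA gave 2.33 in vitrified and 1.03 in frozen embryos (limma adjusted p = 0.144 and 0.231). SCGB1A1 (uteroglobin) gave 2.03 and 1.51 (limma adjusted p = 0.144 and 0.135). Its 10 probes ranged from 1.77 to 2.21 in vitrified and from 0.69 to 1.51 in frozen embryos. LIF gave -0.02 and 0.05, and PGR 0.06 and 0.01. The PGR probe was well above background in only 4 treated and 2 control channels. The frozen median of 0.21 was the value of CYP2A11, whose probe had the same counts. The part of maternal RNA in the member values was not tested.

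**Figure D5:**
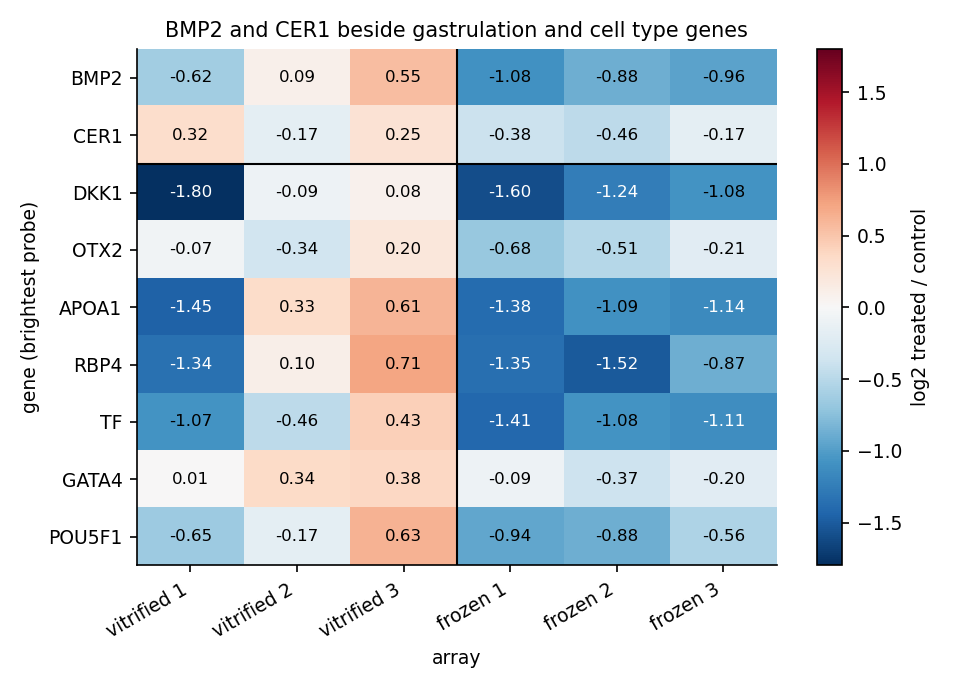
Log2 ratio of treated over control for BMP2, CER1 and 7 genes of gastrulation or cell types (vertical axis, brightest probe) on the 6 arrays (horizontal axis), with the value in each field and colour for its sign and size. BMP2, DKK1, APOA1, RBP4 and TF are below -0.6 on vitrified 1 and on every frozen array, whereas CER1 is 0.32 on vitrified 1. The 7 genes are a selection, each with a fitted frozen difference below 0. Genes of the same lists above 0 in frozen embryos, such as DAB2 at 0.66 and ESRRB at 0.51, are not shown.

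Over the log2 ratios of the 6 arrays, which share control extracts in pairs, Pearson's r was 0.81 between BMP2 and NODAL, 0.87 between NODAL and CER1, 0.61 between BMP2 and GDF3, 0.58 between BMP2 and CER1, 0.41 between NODAL and GDF3, and -0.03 between GDF3 and CER1. Among genes varying at least 0.5 times as much as the member itself, the 3 most like BMP2 were IGF1 (r = 0.989 over 6 arrays), ACSL5 (0.987) and TNFAIP6 (0.984), out of 1468. IGF1 read -0.76, -0.01 and 0.47 on vitrified arrays 1, 2 and 3 and -1.22, -1.10 and -0.88 on frozen arrays 1, 2 and 3. Those most like NODAL were PGA5 (0.995), S100A1 (0.992) and STC2 (0.989), out of 7924. Those most like GDF3 were CCDC8 (0.994), LOC100344535 (0.984) and GGTA1 (0.978), out of 4867. For CER1 they were SLC7A9 (0.974), LOC100345430 (0.972) and DND1 (0.971), out of 6020. With 6 points, and the highest taken from so many genes, these values describe these arrays only.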

How the data were processed

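RNA of 6-day rabbit blastocysts was measured on 6 two-colour arrays. The deposited intensity values are each spot's mean signal and the median around it, per the file headers. The scanner software was Agilent Feature Extraction 10.10.1.1, per the submitters' processing notes. Its deposited log10 ratios (red to green), already corrected for background and dye per the file headers, served as an alternative. Other deposited columns used here are the software's flags of 0 or 1, per the file headers.

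Intensities were corrected with normexp (offset 50), normalised by loess within arrays and averaged per probe in limma 3.58.1 under R 4.3.3, with control spots at weight 0 and outlier-flagged spots left out. The test covered 30758 of 43603 probes, those well above background in 3 or more of 12 channel measurements. The ratio of treated over control was fitted with 1 coefficient per treatment and a dye term over all 6 arrays (3 residual degrees of freedom), followed by eBayes and Benjamini-Hochberg adjustment with a threshold of 0.05. The fit was also run on simulated data with independent errors, no shared control extract and no outlying array. That run does not cover these features of the data. Channel levels were taken after Aquantile. The number of arrays limits the precision. No exact test was run, since 3 against 3 samples allow no p below 0.1.

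Symbols came from the files' names, accessions and gene numbers, matched to a RefSeq gene table of assembly mOryCun1.1, for 22413 probes. No symbol was matched for 20977, and 213 matched several genes. The brightest probe stood for a gene. The genes described, the lists and the tests were chosen with earlier results of these data known. Named besides the members were the 2 smallest p values of each list per treatment, a few fixed ligands, inhibitors and markers, and the 3 genes most like each member. An item that falls under it is left out of the text. RBP4, DAB2, ESRRB, KRT8, GATA2, TFAP2A, TFAP2C, LIF, PGR, CYP2A11, BMPR1A and GSC fall outside that rule and were named after their values were seen.

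Arrays with the same replicate number share a control extract per the labels, which pairs them. Deviations from the group mean correlated within the pairs at 0.017 (replicate 1), 0.594 (replicate 2) and 0.165 (replicate 3). These deviations still hold any dye bias, and both replicate 2 arrays are the dye-swapped ones. The value of replicate 2 therefore cannot tell a shared control extract from the dye. With the dye term in the model the consensus correlation within replicates was -0.103. The alternatives changed background correction, normalisation, filters, flags, dye term, spread, weights, block, slide, probe choice and left out each array.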

Additional observations from a re-analysis of the deposited data

Results flagged for a closer look

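GATA4, a transcription factor of the hypoblast and of early endoderm, was at 0.01, 0.34 and 0.38 on vitrified arrays 1, 2 and 3 and at -0.09, -0.37 and -0.20 on frozen arrays 1, 2 and 3 (log2 treated over control). Every vitrified array was thus above 0 and every frozen array below. The contrast of vitrified minus frozen was 0.46, with an unadjusted p of 0.0200 and an adjusted p of 0.608 (limma, Benjamini-Hochberg), so the difference did not pass the test. Among the 4 genes described here none had opposite signs on all arrays of the 2 treatments.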

How the results depend on the processing

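Of 269 values of the members under the alternatives, 245 kept their direction and their side of the threshold, 19 changed sign and 5 passed where the main value did not. The frozen differences of BMP2, CER1 and NODAL stayed below 0 in every alternative run, and their vitrified minus frozen contrasts above 0. The sign changes were all among the vitrified differences and those of GDF3. Apart from fits that leave out an array, whose ranges follow, they were, for BMP2 in vitrified embryos, -0.060 with median centring, -0.048 with slide as a covariate and -0.062 as the mean of its probes. For GDF3 they were -0.0020 (median centring) and -0.013 (slide) in vitrified embryos, 0.0011 (array weights) and 0.029 (slide) in frozen embryos, and -0.042 (slide) in the contrast. For NODAL in vitrified embryos they were 0.021 without the dye term and 0.0082 with array weights. The NODAL probe was not well above background in all 12 channels and has no value under that filter.

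With array weights the frozen differences of BMP2 (-0.94), its distal probe (-0.76) and CER1 (-0.34) passed, but so did 3645 probes in all, 1585 in vitrified embryos and 88 in the contrast, against 57, 6 and 0 in the main setting. The weights were highest, at 2.16, on both dye-swapped arrays. The dye term makes the residuals of these arrays equal in size, so their equal weights follow from the design. Of called probes in frozen embryos there were 1 with the scanner's ratio, 33 with median centring, 3 with an offset of 10, 8 without the dye term and 0 with slide. In vitrified embryos there were 0 with the scanner's ratio, 0 under the filter on all 12 channels and 0 with slide. Why these counts moved was not tested. Median centring took the share of probes above 0 from 51.3% to 42.8% in vitrified embryos.

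Leaving out single arrays gave BMP2 -0.997 to -0.91 in frozen and -0.26 to 0.32 in vitrified embryos, its distal probe -0.77 to -0.51 and -0.64 to 0.22, CER1 -0.51 to -0.32 and 0.04 to 0.19, GDF3 -0.25 to 0.093 and -0.093 to 0.29, and NODAL -0.35 to -0.22 and -0.059 to 0.050. The contrast was 0.65 to 1.32 for BMP2 and 0.00067 to 0.98 for its distal probe. It was 0.39 to 0.56 for CER1, -0.052 to 0.38 for GDF3 and 0.21 to 0.35 for NODAL. Called probes ranged from 0 to 16 in vitrified and 0 to 513 in frozen embryos, the 513 without vitrified array 1, where BMP2 (-0.997) and its distal probe (-0.76) passed. They were 3 each without vitrified 2 or 3, 1 without frozen 1 and 0 each without frozen 2 or 3.

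With the replicate block, which follows the shared control extract, the frozen BMP2 difference kept an adjusted p of 0.130, and 61 probes were called in frozen and 8 in vitrified embryos (limma). The replicate block changed no call of a member.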
